A study of Homo sapiens with 20 samples.

Results

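The comparison set mRNA of heavy polysomes against mRNA of light polysomes in BE(2)-C cells that had received a control siRNA. Its levels and differences come from the 8 of 20 arrays whose titles name the control siRNA, 4 of heavy and 4 of light polysomes, and a heavy and a light array with the same replicate number were taken as a pair. BE(2)-C is a human neuroblastoma line that carries amplified MYCN, and every value below comes from this 1 line. Cells of both groups had been transfected for 48 h and then treated with cycloheximide, which holds ribosomes on mRNA, before the lysate was separated on a sucrose gradient. RNA of each fraction was measured on Clariom S human arrays, and the values are log2 signals. The other arrays, 6 for each siRNA, came from cells transfected with siRNA-1 or siRNA-2, both directed at the long noncoding transcript lncNB1, and entered here in the estimate of the spread between pairs, and so in every SE and p-value below, and in a separate comparison of their own fractions. The study's supplement says that the polysome experiments were repeated, but the labels do not tie a replicate array to a repeat or a culture. The p-values therefore cover the spread among these arrays alone, and that spread may be technical.

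A polysome is an mRNA with several ribosomes on it. The more ribosomes an mRNA carries, the further it moves into a gradient, so heavy polysomes hold mRNAs with many ribosomes and light polysomes hold mRNAs with few. How many ribosomes an mRNA can carry depends on the length of its reading frame, on how often ribosomes start on it and on how fast they move. The reading frames of histones, metallothioneins and many ribosomal proteins are short. The part of reading frame length in the differences below was not tested. After normalization the control arrays had close median signals, from 6.58 to 6.65, so a difference tells how an mRNA stands against the remaining mRNAs of its fraction. An mRNA with a difference of 0 has the same standing in both fractions and may still carry ribosomes, and the amount of mRNA outside polysomes was not measured. In these bulk samples, fewer cells of a type and less RNA per cell cannot be told apart.

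Of the 10 markers of adrenergic neuroblastoma cells looked for, 8 were measured, and all 8 lay above 5.38, the 95th percentile of olfactory receptor genes, which served as the level of genes that are not expressed. Their mean levels ran from 7.32 to 12.29. The 3 mesenchymal markers measured (COL1A1, PDGFRB, LUM) also lay above it, at 5.85 to 8.38, as did both Schwann cell markers measured (S100B, SOX10) and 1 of 3 blood cell markers (CD3E, at 5.77). The summed signal of the mesenchymal markers was 21.7 to 22.7 in heavy and 19.5 to 20.7 in light polysomes, and that of the Schwann cell markers 12.3 to 13.1 in heavy and 13.5 or more in light. Both fractions came from the 1 cell line, so these sums describe where the marker mRNAs stood and do not count cells. The part of other cell types in the results below was not tested. The 4 pairs separated the fractions to unequal degrees. The SD of the heavy minus light difference over all genes was 0.362, 0.486, 0.571 and 0.611 in pairs 1 to 4, and the slope of each pair on the mean of the other 3 was 0.449, 0.820, 0.963 and 1.32.

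Of 21448 transcript clusters tested with limma, 3113 were higher in heavy polysomes (14.5%) and 2751 were higher in light polysomes (12.8%) at an adjusted p under 0.05, and these are the clusters called below. The largest differences lay on the light side, where 648 called clusters differed at least 2-fold, against 290 on the heavy side. The median difference over all clusters was -0.016. Replicate 4 carried many of the calls: without it, 1841 clusters were called higher in heavy and 1796 higher in light. Among the 14947 clusters above the level of unexpressed genes, 20.1% were called higher in heavy and 16.5% higher in light.

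The 12 largest differences on the heavy side included the glycolytic enzymes PGAM1 and PGK1, the respiratory chain subunit UQCRC1 and the membrane protein CD9. CD9, a tetraspanin of the cell surface, had signals of 9.49, 9.88, 10.51 and 10.67 in heavy polysomes and 8.33, 7.95, 8.20 and 7.82 in light polysomes. Every heavy array lay above every light array, and the difference was 2.06 ± 0.267 (SE, log2; 4.17-fold, adjusted p = 8.27e-05). PGK1, the glycolytic phosphoglycerate kinase, had signals of 8.38, 8.85, 10.03 and 9.75 in heavy and 7.86, 7.39, 7.49 and 7.20 in light polysomes. Its groups did not overlap either, and replicate 1 gave the smallest gap (difference 1.77 ± 0.279, 3.41-fold, adjusted p = 0.000337). The others of the 12 with the largest differences were PGAM1 (1.79), a further glycolytic enzyme, ANXA5 (1.79), a phospholipid-binding annexin, ATP6AP1 (1.66), an accessory subunit of the vacuolar proton pump, PSMD10 (1.59), the proteasome assembly factor gankyrin, UQCRC1 (1.59), a core subunit of respiratory complex III, and EIF3I (1.59), a subunit of initiation factor EIF3. GOLM1 (1.56), a Golgi membrane protein, HMGN5 (1.55), a nucleosome-binding protein, RAB7A (1.54), the late endosome GTPase, and PEPD (1.52), a dipeptidase, completed them.

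The 12 largest differences on the light side included the H2B histone genes H2BC3 and H2BC17 and small subunits of protein complexes such as BRK1 and COPS9. Protein lengths were not analysed here. ITGAE, the integrin alpha E subunit and itself a large protein, had the largest difference, with signals of 7.85, 7.59, 7.46 and 7.31 in heavy and 10.04, 10.29, 9.36 and 10.41 in light polysomes. The gap between the groups was wide, and the difference was -2.47 ± 0.206 (5.54-fold higher in light, adjusted p = 8.35e-06). H2BC3, a histone H2B gene, had signals of 7.53, 7.62, 6.96 and 7.17 in heavy and 9.72, 9.49, 8.88 and 9.78 in light polysomes. Again no array overlapped (difference -2.15 ± 0.181, 4.43-fold, adjusted p = 8.35e-06). The others of the 12 were COMMD6 (-2.45), of the COMMD family, MYL6B (-2.20), a myosin light chain, BRK1 (-2.16), the small subunit of the WAVE actin-regulating complex, COPS9 (-2.14), the small subunit of the COP9 signalosome, and H2BC17 (-2.12), a further H2B gene. TMA7 (-2.09), a small protein first linked to translation in yeast, FAM200B (-2.01), RBIS (-2.01), a ribosome biogenesis factor, DNAJC19 (-1.99), of the mitochondrial import motor, and HIGD2A (-1.99), an assembly factor of the respiratory chain, were the rest.

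**Figure D1:**
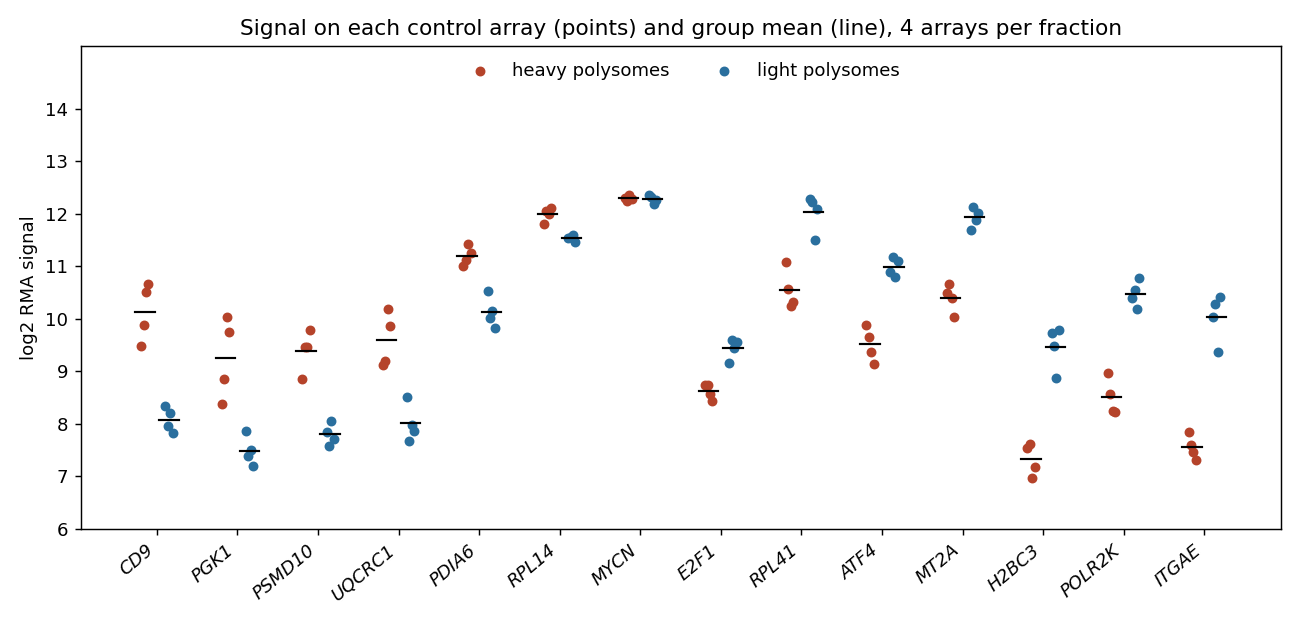
The log2 signal of 14 genes on each of the 4 heavy (red) and 4 light (blue) control arrays, with group means as lines. From CD9 to RPL14 the heavy arrays lie above the light arrays, the MYCN arrays overlap near 12.3, and from E2F1 to ITGAE the light arrays lie above the heavy arrays.

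Ribosomal protein mRNAs stood higher in light polysomes as a group, but over a wide range. Of 32 large-subunit genes measured, 18 were called higher in light and 1 higher in heavy, with a median difference of -0.385, and of 21 small-subunit genes 13 were higher in light and 0 higher in heavy, with a median of -0.452. Without replicate 3, and likewise without replicate 4, 12 large-subunit and 9 small-subunit genes were higher in light. Medians in pairs 1 to 4 were -0.204, -0.238, -0.661 and -0.526 for the large subunit. For the small subunit they were -0.175, -0.320, -0.712 and -0.690. RPL41, the shortest of the ribosomal proteins, had signals of 11.09, 10.57, 10.25 and 10.31 in heavy and 12.28, 12.22, 11.51 and 12.10 in light polysomes. No heavy array reached a light array (difference -1.47 ± 0.148, 2.78-fold, adjusted p = 1.53e-05). RPS29 (-1.61), RPL29 (-1.31), RPS12 (-1.26) and RPS27 (-1.17) lay near it. So did RPL39L (-1.74), RPS27L (-1.66) and RPL22L1 (-1.36), which are paralogues of ribosomal proteins. RPL22L1 was counted with the ribosomal protein genes. RPL14, the large-subunit gene called on the other side, had signals of 11.81, 12.05, 12 and 12.12 in heavy and 11.53, 11.56, 11.60 and 11.46 in light polysomes. Its groups did not overlap, and the difference was 0.46 ± 0.108 (1.37-fold, adjusted p = 0.00514). Many ribosomal protein genes have near-identical processed copies in the genome, so how far a probe set measures 1 gene is uncertain.

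Ribosomal protein mRNAs are known for a 5′ terminal oligopyrimidine tract, a C at the first base followed by pyrimidines, through which their translation is regulated by the mTOR kinase. The starts of the 4 lightest and the 4 heaviest ribosomal protein genes with such a tract at the annotated start are shown to set that shared element beside the spread of their differences. Each window holds 15 bases before the start and 15 from the start on, 5′ to 3′, from the RefSeq table (GRCh38.p14), and capitals mark the C at the start and the pyrimidines that follow it without a break.
RPL41: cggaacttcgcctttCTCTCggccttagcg
RPL22L1: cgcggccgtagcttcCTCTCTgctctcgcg
RPL29: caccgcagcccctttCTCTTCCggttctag
RPS12: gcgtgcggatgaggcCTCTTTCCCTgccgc
FAU: cgccctcgcttcttcCTCTTTCTCgactcc
RPS10: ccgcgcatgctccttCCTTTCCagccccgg
RPL24: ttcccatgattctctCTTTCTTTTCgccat
RPL14: gggcgggtcttcttcCTTCTCgcctaacgc

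The windows lie at chr12:56116618-56116647 (RPL41, + strand), chr3:170870181-170870210 (RPL22L1, - strand), chr3:51995881-51995910 (RPL29, - strand), chr6:132814554-132814583 (RPS12, + strand), chr11:65122120-65122149 (FAU, - strand), chr6:34426055-34426084 (RPS10, - strand), chr3:101686704-101686733 (RPL24, - strand) and chr3:40457324-40457353 (RPL14, + strand). FAU (-0.02), which encodes a ribosomal protein fused to a ubiquitin-like protein, RPS10 (-0.01) and RPL24 (0.16) were not called. The tract was 5 bases long in RPL41 and 10 in RPS12 on the light side, and 10 in RPL24 and 6 in RPL14 at the other end. A C at the start followed by at least 4 pyrimidines, searched on the transcribed strand only, stood in 31 of 47 ribosomal protein genes with a start in the table (66%) and in 4.48% of 14010 protein-coding genes measured. The median difference was -0.43 for the 31 ribosomal protein genes with the tract and -0.39 for the 16 without it. The 596 other genes with the tract had a median of -0.01, and 17.3% of them were called higher in light and 16.9% higher in heavy. A match to these letters is a description.

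Histone mRNAs of the replication-dependent clusters, which end in a stem-loop instead of a poly(A) tail, stood in light polysomes. Of 60 measured, 41 were called higher in light and 0 higher in heavy, and the median difference was -0.705. The classes, which were formed after values had been seen, differed in their values. All 17 H2B genes measured were called (16 without replicate 1 or 2, when H2BC1 was lost), although H2BC1, at a mean level of 3.47, lay below the level of unexpressed genes, with a median of -1.397 (H2BC3 -2.15, H2BC26 -1.85, H2BC6 -1.62, H2BC11 -1.55), as were all 9 H3 genes, with a median of -0.734 (H3C10 -0.97, H3C3 -0.80). Of 15 H4 genes 10 were called, with a median of -0.563 (H4C2 -0.91), and of 5 linker H1 genes 4 were called (H1-2 -1.26). Of 14 H2A genes 1 was called (H2AC15, -0.76), and the median was -0.294, with 3 called without replicate 1. Pairs 3 and 4 gave larger histone differences than pairs 1 and 2, with medians of -1.069 and -1.011 against -0.369 and -0.333. The H4 count rested on them, with 2 genes called without replicate 3 and 2 without replicate 4. Of the H3 genes, 7 were called without replicate 4. Histone genes of 1 class are near-identical copies, so single genes of a class are uncertain.

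**Figure D2:**
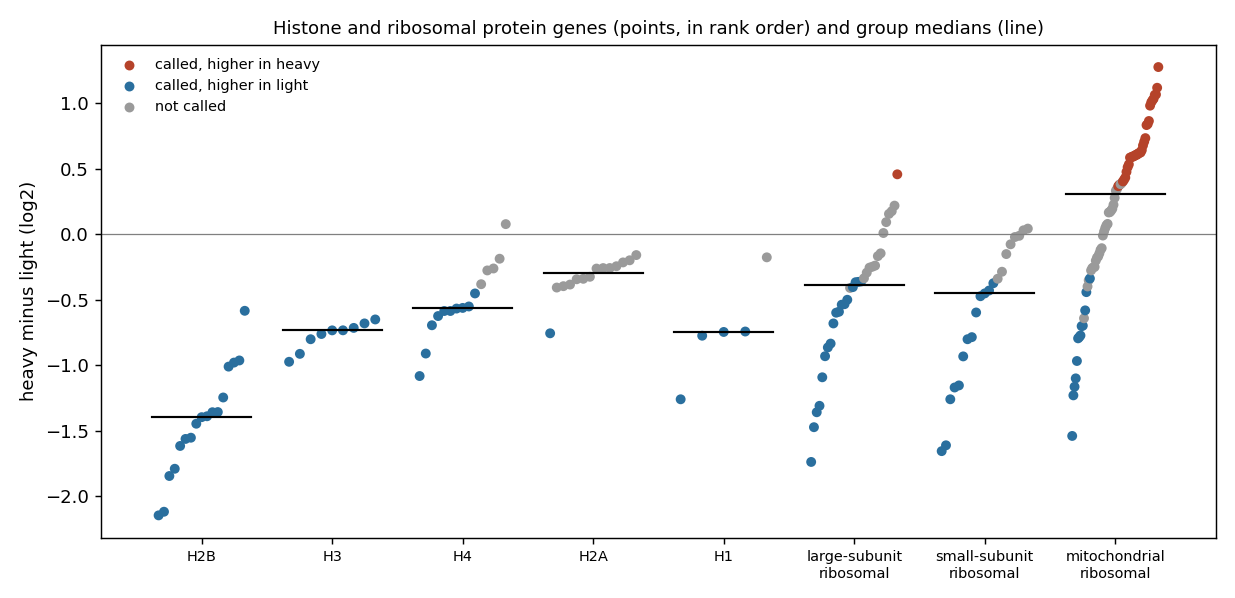
The heavy minus light difference (log2) of each histone and ribosomal protein gene measured, in rank order within its class, with the class median as a line. All 17 H2B genes lie below 0 and are called, the H2A genes lie between -0.76 and -0.16, and the mitochondrial ribosomal proteins reach from -1.54 to 1.28.

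Metallothioneins, small cysteine-rich proteins that bind zinc and copper, formed the list with the lowest median. Of 10 measured, 9 were called higher in light and 0 higher in heavy, with a median of -1.502. MT2A had signals of 10.5, 10.67, 10.39 and 10.03 in heavy and 11.70, 12.13, 11.88 and 12.02 in light polysomes. The groups did not overlap (difference -1.53 ± 0.141, 2.89-fold, adjusted p = 1.08e-05). MT1F (-1.60), MT1X (-1.58) and MT1B (-1.56) had values close to it, and MT3, the brain form, did not pass (-0.17). Metallothionein genes are close copies of each other, so a single MT1 gene is uncertain.

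Mitochondrial proteins were divided by their role. The subunit groups of the respiratory chain, the RNA polymerases, the proteasome and the initiation factors were formed after values had been seen. Counts in such groups describe the values and do not test a difference between the groups. The respiratory chain list as a whole had 22 genes called on each side of 67 measured and a median of 0.029, which was -0.075 without replicate 1 and -0.087 without replicate 2. Its core, the conserved subunits of the complexes and of the ATP synthase, had 10 of 13 genes called higher in heavy and 0 higher in light (median 0.638), among them UQCRC1, ATP5F1A (1.07), CYC1 (0.90) and ATP5F1B (0.81). UQCRC1 had signals of 9.12, 9.20, 10.18 and 9.87 in heavy and 8.51, 7.67, 7.97 and 7.87 in light polysomes. Its groups did not overlap (difference 1.59 ± 0.232, 3.01-fold, adjusted p = 0.000198). The accessory and small subunits had 22 of 51 genes called higher in light and 10 higher in heavy. Their median was -0.254, but -0.41 without replicate 1 and -0.098 without replicate 3, and it was 0.051 and 0.009 in pairs 1 and 2. ATP5ME, a small subunit of the ATP synthase, had signals of 8.50, 8.19, 7.75 and 7.76 in heavy and 9.88, 9.86, 9.66 and 9.85 in light polysomes. That difference was -1.76 ± 0.15 (3.39-fold, adjusted p = 8.35e-06), again with no overlap, and UQCR11 (-1.79), UQCR10 (-1.54) and NDUFC1 (-1.40) were also higher in light. Without replicate 4, 5 core genes were called, and 14 of the whole list were called higher in heavy. Pair 3 had a median of -0.664 over the whole list and the other pairs between -0.073 and 0.328.

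The small Tim and Tom proteins, which chaperone or admit proteins into mitochondria, were all called higher in light, 8 of 8 with a median of -1.394 (TOMM7 -1.89, TIMM9 -1.79, TIMM8B -1.50, TOMM5 -1.46). This group was also formed after values had been seen, and 7 were called without replicate 2, 3 or 4. The full import list, which also holds large chaperones and receptors, had 15 of 31 called higher in light and 11 higher in heavy. Mitochondrial ribosomal proteins leaned to heavy polysomes, with 33 of 74 called higher in heavy, 13 higher in light and a median of 0.305 (MRPS23 1.12, MRPL33 -1.54, MRPL11 -1.23, MRPL20 -1.17). Without replicate 4, 20 of them were called higher in heavy. Their median was 0.001 in pair 3 and 0.168 to 0.357 in the other pairs.

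RNA polymerase subunits also lay on both sides, with 8 of 28 called higher in heavy (28.6%), 6 higher in light (21.4%) and a median of 0.142. These shares were not far from the 20.1% and 16.5% of all clusters above the level of unexpressed genes. POLR2K, a small subunit shared by the 3 nuclear polymerases, had signals of 8.97, 8.56, 8.25 and 8.22 in heavy and 10.40, 10.54, 10.18 and 10.78 in light polysomes. The groups stood far apart (difference -1.97 ± 0.165, 3.93-fold, adjusted p = 8.35e-06). POLR2A, the largest subunit of polymerase II, had signals of 8.90, 9.09, 9.38 and 9.23 in heavy and 8.57, 8.34, 8.25 and 7.97 in light polysomes. It differed in the other direction, without overlap (0.87 ± 0.152, 1.83-fold, adjusted p = 0.000708). Of 11 large subunits 6 were called higher in heavy and 0 higher in light, and of 12 small subunits 6 were called higher in light (POLR2I -1.60, POLR1D -1.45, POLR2J -1.24) and 0 higher in heavy. The large and small groups do not hold every gene of the whole list. Without replicate 3, 3 large subunits were called, and without replicate 4, 2 were. Over the whole list the numbers higher in heavy were then also 3 and 2.

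Proteins of the spliceosome were also found on both sides. The Sm, LSm and other small proteins had 13 of 30 called higher in light and 9 higher in heavy (LSM3 -1.96, LSM7 -1.43, LSM1 -1.32, U2AF1 0.93), with medians of 0.014, 0.101, -0.926 and -0.416 in pairs 1 to 4. Without replicate 3, and likewise without replicate 4, 9 were higher in light and 9 higher in heavy. The large proteins of the particle, among them the GTPase EFTUD2 (0.87) and the helicase SNRNP200 (0.74), had 11 of 23 called higher in heavy and 1 higher in light (PRPF3, -0.48). Without replicate 3, 7 were called higher in heavy, and without replicate 4, 5 were higher in heavy and 0 higher in light. SR proteins and hnRNPs, which bind pre-mRNA and steer splice site choice, had 33 of 48 called higher in heavy and 2 higher in light, with a median of 0.461 (HNRNPA0 1.14, ELAVL1 1.03, SRSF1 0.98, HNRNPC 0.74). Without replicate 4, 18 of these were called higher in heavy.

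**Figure D3:**
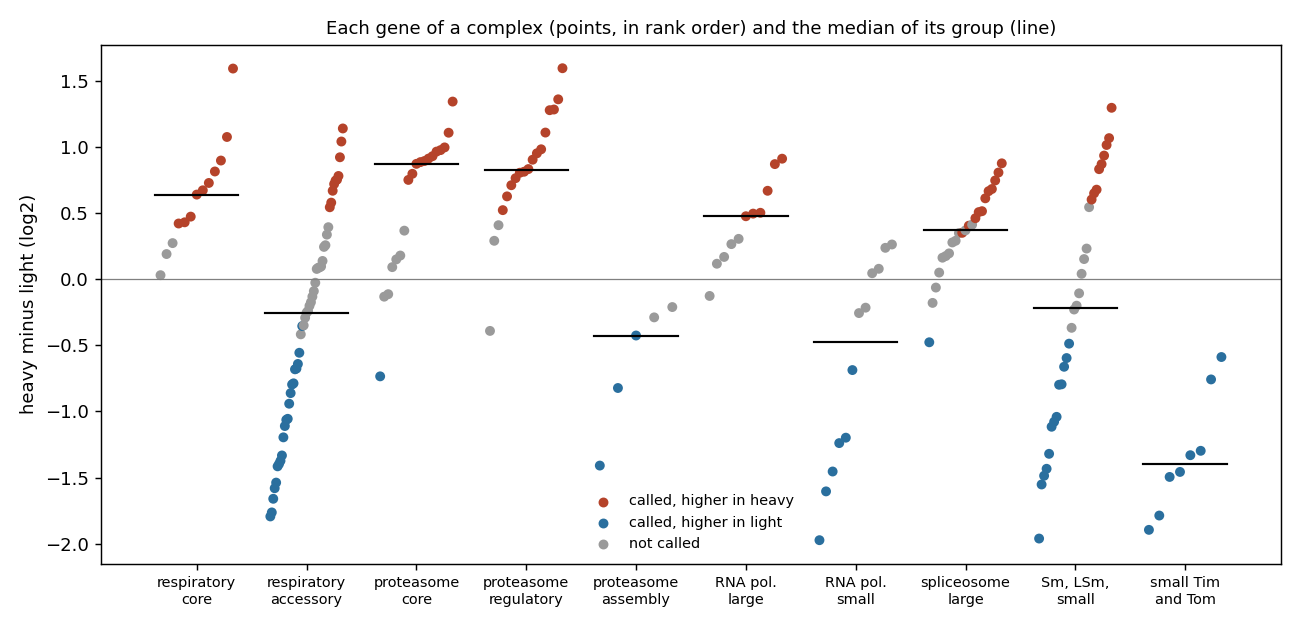
The heavy minus light difference (log2) of each gene measured in groups of subunits, in rank order, with the group median as a line; red and blue mark genes called higher in heavy and in light. The small Tim and Tom proteins are all blue, and within the respiratory chain, the proteasome and the RNA polymerases the group medians lie on different sides of 0. The groups named here were formed after values had been seen.

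Ubiquitin, ubiquitin-like proteins and the E2 enzymes that conjugate them were more often higher in light, with 20 of 41 called and 4 called higher in heavy, and a median of -0.378. ATG12, the ubiquitin-like protein of autophagy, had a difference of -1.93 ± 0.187 and SUMO3 one of -1.44 ± 0.170, and the E2 enzymes UBE2F (-1.67) and UBE2D4 (-1.39) lay beside them. Pairs 1 and 2 had medians of -0.073 and -0.055 and pairs 3 and 4 of -0.831 and -0.543, and without replicate 3, 7 were called higher in heavy and 14 higher in light. Of 19 small integral membrane protein (SMIM) genes, 9 were called higher in light and 0 higher in heavy (SMIM11 -1.87, SMIM8 -1.78), with a median of -0.320 that was -0.170 without replicate 3 and -0.152 without replicate 4. Thymosin beta 10 (TMSB10), a small actin-binding peptide, stood at -1.88 ± 0.170.

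The proteasome showed the reverse. Of 42 genes measured, 27 were called higher in heavy and 4 higher in light (2 without replicate 3 and 2 without replicate 4), and the median was 0.799. PSMD10 had signals of 8.86, 9.46, 9.46 and 9.78 in heavy and 7.85, 7.58, 8.06 and 7.70 in light polysomes. All heavy arrays were above all light arrays (difference 1.59 ± 0.182, 3.02-fold, adjusted p = 3.5e-05). The core particle, which cuts proteins, had 12 of 19 called higher in heavy (PSMA3 1.34, PSMB1 1.11), and the regulatory particle, which unfolds them, 15 of 18 (PSMD3 1.36, PSMD8 1.28). Of the 5 factors listed for assembly alone (PSMG1 to PSMG4 and POMP), 0 were higher in heavy and 3 were higher in light, PSMG3 (-1.41), PSMG4 (-0.82) and POMP (-0.43). PSMD10, itself an assembly factor, was counted with the regulatory particle by its symbol. The PSMG4 and POMP calls were lost without replicate 3 (adjusted p = 0.0668 and 0.258) and without replicate 4 (0.0875 and 0.148).

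Glycolytic enzymes stood in heavy polysomes, 14 of 17 called and 0 called higher in light, with a median of 0.790 (LDHA 1.25, TPI1 0.94, beside PGK1 and PGAM1). Without replicate 3, and likewise without replicate 4, 10 of them were called. The enzymes of cholesterol synthesis had 14 of 19 called higher in heavy and 0 higher in light, with a median of 0.513 (NSDHL 0.95, DHCR7 0.92, HMGCS1 0.73, FDPS 0.62), and 7 without replicate 4. Chaperones and folding enzymes of the endoplasmic reticulum had 17 of 22 called higher in heavy and 0 higher in light, with a median of 0.636. PDIA6, a disulfide isomerase, had signals of 11, 11.12, 11.43 and 11.26 in heavy and 10.52, 10.01, 10.15 and 9.83 in light polysomes. The groups were separate (1.08 ± 0.156, 2.11-fold, adjusted p = 0.00019), and CRELD2 (0.95), DNAJB11 (0.93) and DNAJC3 (0.84) were close to it. Cytosolic chaperones had 15 of 24 called higher in heavy, among them CCT2 (0.93) of the TRiC chaperonin, and 3 higher in light, the small proteins PFDN4 (-1.57) and PFDN1 (-0.97) of prefoldin and HSBP1 (-1.37), which binds heat shock factor. Without replicate 3, 8 cytosolic chaperones were called higher in heavy, and without replicate 4, 7 were.

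The secretory route past the folding step leaned the same way. Vesicle coat proteins had 18 of 30 called higher in heavy and 1 higher in light (AP2S1, -0.63; 0 without replicate 3 or 4), with a median of 0.437 (AP1S1 1.06, SEC24D 0.87, SAR1B 0.85, COPG1 0.69), where AP1S1 and AP2S1 are both small adaptor subunits. Components that target and move proteins into the endoplasmic reticulum had 15 of 29 called higher in heavy and 3 higher in light, with SRPRB, a subunit of the signal recognition particle receptor, at 0.98 and SEC61B, the small subunit of the translocon, at -1.39. Synaptic vesicle and granule proteins had 18 of 31 called higher in heavy and 4 higher in light. Without replicate 4, 12 were higher in heavy. The prohormone-processing enzyme CPE was called (0.76), but its mean level of 4.13 lay below that of unexpressed genes, and the 4 on the light side included VAMP2 (-1.38), VAMP4 (-1.13) and VAMP1 (-0.90), short SNARE proteins of vesicle fusion.

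Among the factors of translation itself, initiation factors had 18 of 33 called higher in heavy and 9 higher in light, with a median of 0.342. Of the 8 subunits of EIF2 and its exchange factor EIF2B measured, 7 were called higher in heavy (EIF2B2 1.10, EIF2S1 0.99), and of the 13 EIF3 subunits 7 were higher in heavy and 1 higher in light (EIF3L, -0.45). EIF4H (0.82) and EIF6 (0.82) were higher in heavy and EIF4EBP1 (-0.98), the small inhibitor of cap binding, was higher in light. The EIF3L call was lost without replicate 1, 2 or 4. Without replicate 4, 11 initiation factors were called higher in heavy and 5 higher in light, and 3 of the EIF2 and EIF2B subunits were. Without replicate 3 these were 5 higher in light and 4 of the EIF2 and EIF2B subunits. Aminoacyl-tRNA synthetases had 9 of 17 called higher in heavy and 0 higher in light (YARS1 0.92, NARS1 0.90), and 6 without replicate 3 or 4. A list of elongation factors and other mRNAs known for the terminal oligopyrimidine tract had 2 of 11 called higher in heavy (18.2%). In that list 1 was higher in light (9.09%). Its median was 0.084, with -0.116, -0.166, 0.254 and 0.305 in pairs 1 to 4.

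Some lists of genes with long reading frames had more genes called higher in heavy than in light, and others stood near the median of all clusters. Chromatin modifiers of long reading frame had 24 of 38 called higher in heavy and 0 higher in light, with a median of 0.464 (KMT2D 0.94, CREBBP 0.90, ARID1A 0.72, BAZ1B 0.69). E3 ligases and other proteins of very long reading frame had 18 of 36 called higher in heavy and 2 higher in light (NBEA -0.61, LRBA -0.56), with a median of 0.326 (HTT 1.04, USP9X 0.88, VPS13C 0.88, HUWE1 0.85). Giant cytoskeletal and scaffold proteins had 10 of 26 called higher in heavy and 0 higher in light, with a median of 0.308 (MAP1A 0.95, DST 0.66). Collagens, laminins and matrix proteins had 11 of 71 called higher in heavy (15.5%) and a median of -0.009, and protocadherins and cadherins 8 of 58 (13.8%) and a median of 0.057. Dyneins, dynactin and myosins had 15 of 60 (25%), with a median of 0.011, and 9, 8 and 4 without replicates 2, 3 and 4. Many genes of these lists were dim: 44 of 71, 37 of 58 and 40 of 60 lay above the level of unexpressed genes. That level was passed by 36 of 38 chromatin modifiers, 32 of 36 E3 ligases and 23 of 26 giant proteins. Medians of the expressed members alone were not computed. Without replicate 4, 5 of the protocadherins and cadherins were higher in heavy. Nuclear pore and transport proteins, which were not listed for length, had 23 of 46 called higher in heavy and 1 higher in light (NUTF2, -0.85), with a median of 0.328 (SEH1L 1.35, KPNB1 1.07). Without replicate 4, the numbers higher in heavy were 13 for chromatin modifiers, 12 for E3 ligases, 4 for giant scaffold proteins and 14 for nuclear pore proteins. No test compared the lists with each other.

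**Figure D4:**
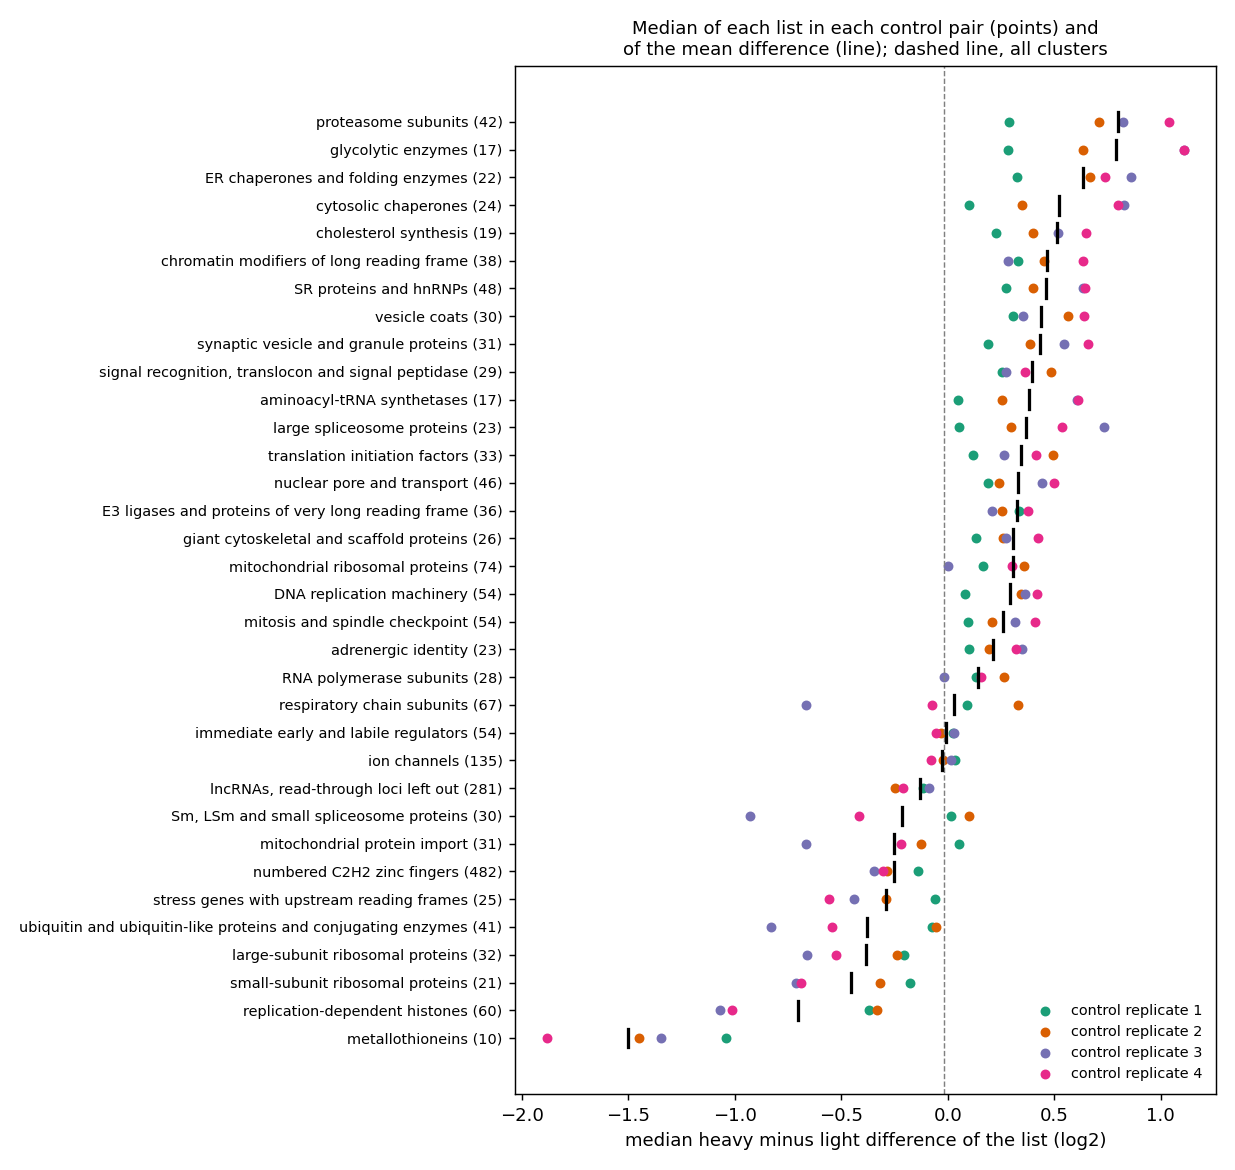
The median heavy minus light difference (log2) of 34 lists in each of the 4 control pairs (coloured points) and of the mean difference (black line), with the number of genes measured in brackets and the median of all clusters as a dashed line. The proteasome and glycolytic lists lie near 0.8 and the metallothioneins near -1.5, replicate 1 gives the smallest differences in most lists, and replicate 3 is lowest for the Sm, respiratory chain and ubiquitin lists.

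Zinc finger transcription factors were the largest list on the light side. Of 482 numbered C2H2 zinc finger genes measured, 168 were called higher in light (34.9%) and 11 higher in heavy (2.28%). Among all clusters above the level of unexpressed genes these shares were 16.5% and 20.1%. The median of the zinc fingers was -0.254, with pair medians between -0.348 and -0.140. ZNF32 had signals of 6.08, 5.91, 5.41 and 5.93 in heavy and 7.50, 7.75, 7.26 and 7.95 in light polysomes. These did not overlap (difference -1.78 ± 0.153, 3.44-fold, adjusted p = 8.35e-06). ZNF511 (-1.38), ZNF33B (-1.10) and ZNF358 (-1.09) followed, and at the other end lay ZNF622 (1.00), a factor of ribosome maturation, which was picked after its values were seen. Without replicate 4, 117 were called higher in light and 3 higher in heavy. Homeobox transcription factors had 5 of 62 called higher in light (8.06%) and 6 higher in heavy (9.68%), both below the shares of those clusters. The number higher in heavy was 2 without replicate 2, 3 without replicate 3 and 1 without replicate 4. The difference between the families was not tested.

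Stress genes with upstream open reading frames, short frames before the main one that hold back its translation in unstressed cells, had 11 of 25 called higher in light and 2 higher in heavy, with a median of -0.289. ATF4, the transcription factor of the amino acid stress response, had signals of 9.88, 9.66, 9.37 and 9.13 in heavy and 10.90, 11.17, 10.79 and 11.10 in light polysomes. No array overlapped (difference -1.48 ± 0.152, 2.79-fold, adjusted p = 1.67e-05). SAT1 (-1.28), which degrades polyamines, DDIT3 (-1.21), the stress factor CHOP, and UCP2 (-1.17), a mitochondrial carrier, were also higher in light. The 2 genes on the heavy side were ASNS (0.83), the asparagine synthetase, and EPRS1 (0.59), a tRNA synthetase. The ASNS call, and with it 1 of the 2, was lost without replicate 4 (adjusted p = 0.0573).

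Long noncoding RNAs, which have no annotated reading frame, lay towards light polysomes. Of 281 genes of RefSeq's lncRNA class measured, with read-through loci left out, 51 were called higher in light and 2 higher in heavy (0 without replicate 1 or 2 and 1 without replicate 4), and the median was -0.131. Of the 133 above the level of unexpressed genes, 41 were called higher in light and 0 higher in heavy (median -0.181), against 2015 of 12500 protein-coding genes higher in light (16.1%) and 2670 higher in heavy (21.4%). CHASERR, which lies beside the chromatin remodeller gene CHD2, had signals of 8.97, 8.54, 8.13 and 8.24 in heavy and 10.25, 10.36, 9.53 and 10.53 in light polysomes. The groups were apart (difference -1.70 ± 0.171, 3.24-fold, adjusted p = 1.53e-05). CRNDE (-1.54) and HAND2-AS1 (-0.87), which is divergent from the adrenergic factor gene HAND2, were also higher in light. These 3 were chosen after their values were seen. The sources used here do not state whether the probes tell the strands apart, so antisense genes are uncertain.

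DNA replication genes had 23 of 54 called higher in heavy (42.6%) and 3 higher in light, with a median of 0.292 (FEN1 1.23, TK1 1.04, PCNA 0.87, and RPA3, the small subunit of the single-strand binding complex, at -1.05). Mitosis and spindle checkpoint genes had 20 of 54 called higher in heavy (37%) and 9 higher in light (16.7%, against 16.5% of all clusters above the level of unexpressed genes), with a median of 0.258 (CDC25A 0.94, CCNB2 0.78, CKS1B -1.19, BIRC5 -1.09). Without replicate 4, 15 and 11 were called higher in heavy. Immediate early and labile regulators had 13% called higher in heavy and 11.1% higher in light, near the 14.5% and 12.8% of all clusters. Both lay below the 20.1% and 16.5% of clusters above the level of unexpressed genes, which 49 of the 54 passed. The list had 7 of 54 called higher in heavy, led by cyclin D1 (CCND1, 1.16) and cyclin D3 (CCND3, 0.77). It had 6 higher in light, including the p53 ligase MDM2 (-0.95) and EGR1 (-0.93). That list had 4 higher in heavy without replicate 3, and 4 higher in heavy and 2 higher in light without replicate 4.

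Of 23 genes of adrenergic identity, the state of neuroblastoma cells that resembles sympathetic neurons, 10 were called higher in heavy and 2 higher in light, with a median of 0.211. DBH, the enzyme that makes noradrenaline, had signals of 8.98, 9.13, 9.21 and 9.01 in heavy and 8.58, 8.18, 7.94 and 8.12 in light polysomes. They did not overlap (difference 0.88 ± 0.143, 1.84-fold, adjusted p = 0.000426). Chromogranin A (CHGA, 0.90) and PHOX2A (0.70) were also higher in heavy, and the chromatin organiser SATB1 (-0.92) was higher in light. Without replicate 3 and without replicate 4, 6 were called higher in heavy and 1 higher in light, and without replicate 2, 1 was higher in light. NCAM1 (0.99), a neural adhesion molecule and marker of neuroblastoma chosen after its values were seen, was higher in heavy.

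A list of genes that the study followed up, which does not hold every gene it names, had 11 measured, of which 6 were called higher in heavy and 1 higher in light. MYCN had signals of 12.31, 12.25, 12.35 and 12.28 in heavy and 12.35, 12.33, 12.18 and 12.26 in light polysomes. Its groups overlapped, with a difference of 0.02 ± 0.103 (95% interval -0.20 to 0.24, adjusted p = 0.935). E2F1, the cell cycle transcription factor, had signals of 8.73, 8.73, 8.57 and 8.43 in heavy and 9.16, 9.60, 9.45 and 9.56 in light polysomes. It was higher in light on every array (difference -0.83 ± 0.156, 1.78-fold, adjusted p = 0.00116). ILF2 (1.03), an RNA-binding protein, TUBB2B (0.95) and TUBB2A (0.94), which are beta tubulins and near-identical to each other, H1-10 (0.89), a linker histone, IGF2BP1 (0.78), an mRNA-binding protein, and MAPK3 (0.52), the kinase ERK1, were higher in heavy. DEPDC1B (-0.26), RPL35 (-0.15) and DDX42 (0.24) did not pass.

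The fractions of cells given siRNA-1 or siRNA-2 were compared in the same way. Their arrays give differences separate from those of control cells, but the spread of their pairs entered the fit that set the control calls. Of the 3113 clusters called higher in heavy in control cells, 98.7% had the same sign in siRNA-1 and 98.7% in siRNA-2 cells, where 48.5% and 49.7% of all clusters had that sign. Of the 2751 called higher in light, 97.2% and 97.6% had the same sign, against 51.5% and 50.3% of all clusters. The list medians were also close, at 0.822 and 0.652 for the proteasome (0.799 in control cells), 0.786 and 0.786 for glycolysis, -0.849 and -0.699 for histones and -1.503 and -1.248 for metallothioneins. Tested directly, the heavy minus light difference of siRNA-1 cells differed from that of control cells at 0 of 21448 clusters (0%), and that of siRNA-2 cells at 0 clusters (0%), with limma at an adjusted p under 0.05. At an unadjusted p under 0.05 the numbers were 1206 and 542. With 3 pairs against 4, these zeros do not show that the fractions hold the same mRNAs in siRNA and control cells.

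**Figure D5:**
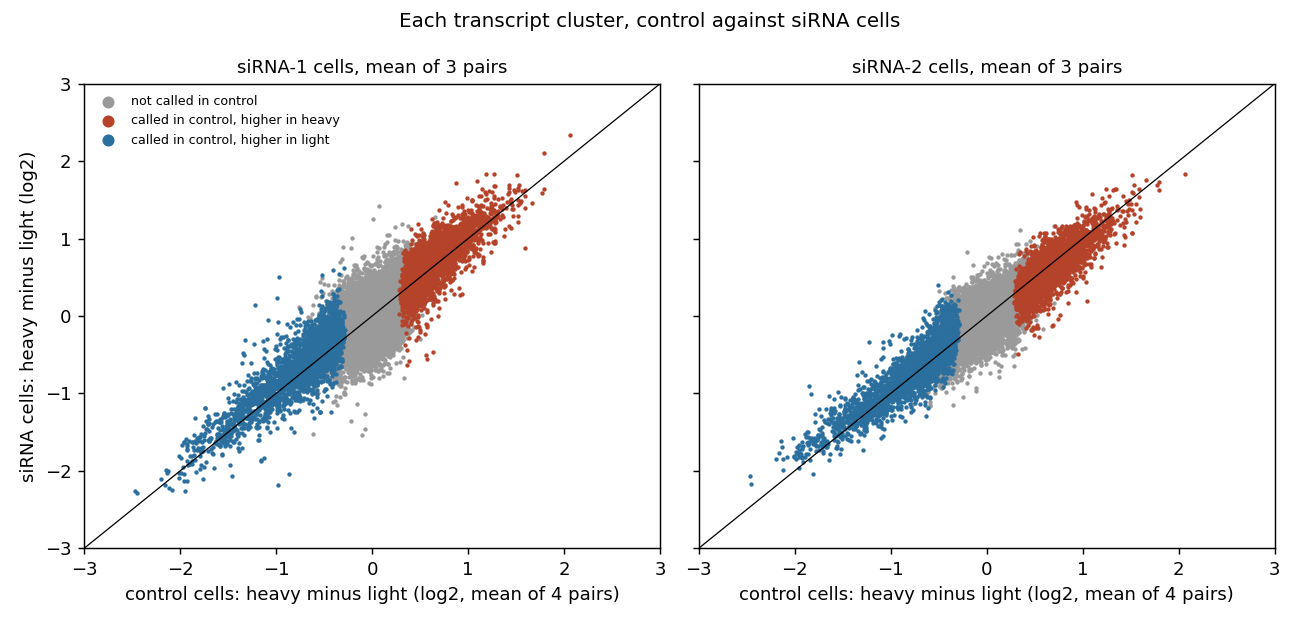
The heavy minus light difference (log2) of each transcript cluster in control cells (mean of 4 pairs) against that in siRNA-1 and siRNA-2 cells (means of 3 pairs), with the line of equality. Clusters called higher in heavy in control cells (red) lie to the upper right in both panels, where 98.7% and 98.7% have the same sign, and those called higher in light (blue) to the lower left.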

How the data were processed

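The authors processed Clariom S arrays with the robust multi-array average (RMA) of the oligo package in R 3.5.3 and deposited 1 log2 value per probe set. Of limma, the submitters' notes name version 3.38.3. The genome build, and whether both fractions were normalized in 1 run, are not given in the sources used here. Of 27189 probe sets, 5741 control and other sets were left out. Of the 21448 transcript clusters tested, 17709 had 1 gene symbol in the platform annotation and 3739 had none. A gene with several clusters (20 symbols) took the brightest. Symbols were matched to RefSeq for lncRNA class and start sequences, and 14010 of 17249 protein-coding genes measured had a start.

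Heavy minus light differences of all 10 pairs, of control and siRNA cells, were fitted together with limma 3.58.1 in R 4.3.3 (lmFit and eBayes, 7 residual degrees of freedom), adjusted by Benjamini-Hochberg across every cluster tested, at a threshold of 0.05. Lists are described by counts and medians, with no test of a list, beside the shares over all clusters. Members and lists were chosen with earlier results of these data known, and the groups of subunits, histone classes, small membrane proteins and lncRNA classes were formed after values had been seen. A list member not matched to a cluster was not analysed here, and protein lengths were not analysed here. Named genes were the 12 largest differences in each direction with 1 sign in all 4 pairs, in each list the 4 genes or fewer of lowest p, and a list of genes the study followed up, which leaves out others that it names. Genes named as the exception within a list or as the end of a range (such as RPL14, MT3, ASNS and NUTF2) were chosen after their values were seen. Y-linked genes are not reported. The fit was tested on data with known changes before use. Alternatives left out 1 replicate at a time, dropped the pairing, refitted control arrays alone, changed the normalization and scaling, removed dim clusters, weighted arrays, or used 1.5-fold with an unadjusted p.

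The pairing follows the replicate number. Heavy and light arrays of 1 number did not deviate together from their group means (correlations 0.00721, 0.0212, -0.0553 and -0.0324 for replicates 1 to 4). The number of arrays limits precision.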

Additional observations from a re-analysis of the deposited data

Results flagged for a closer look

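In 7 of 278 values examined over the 4 control pairs (named genes and list medians), 1 pair stood far from the other 3, where chance flags about 1 in 20 groups. Replicate 4 was lower for H2BC17 (-3.05 against -1.84, -1.90 and -1.69), for H2BC11 (-1.96 against -1.44, -1.43 and -1.38) and for the median of the H2B histones (-1.93 against -1.24, -1.29 and -1.31), values that share genes of 1 near-identical class. Replicate 1 was lower for EFTUD2 (0.22 against 1.06, 1.08 and 1.14). Replicate 2 stood apart for SAT1 (-1.55 against -1.19, -1.17 and -1.22) and for CPE (0.39 against 0.88, 0.88 and 0.89), whose mean level of 4.13 lay below that of unexpressed genes, and replicate 3 for RPS10 (-0.12 against 0.03, 0.02 and 0.02). The direction was the same in all 4 pairs for these values except RPS10, which was not called.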

How the results depend on the processing

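The numbers of clusters higher in heavy and in light were 3113 and 2751. They stayed within 1.5 times these values under all alternatives but the 1.5-fold rule and leaving out replicate 4. At 1.5-fold with an unadjusted p under 0.05 they were 1659 and 1699, since that rule also asks for a size. Leaving out 1 control replicate gave 1841 to 3111 higher in heavy and 1796 to 2918 higher in light, with the lowest numbers without replicate 4. Fewer pairs were fitted in each case, but without replicate 1 the numbers were 3111 and 2918. Without the replicate block (no pairing) the numbers were 2879 and 2692, and with control arrays only, with the replicate block, 2730 and 2512. Leaving out every pair of replicate 1 gave 3132 and 3059. No called gene that the text names changed sign. FAU, RPS10 and MYCN, which were not called, did, as did list medians between -0.029 and 0.029. Beside the calls given as lost above, H2BC1, H4C1, POLR2B and POLR1A lost theirs without 1 or more replicates, and POMP also with control arrays only, array weights, centred pairs or no pair of replicate 1. EIF3L lost its call without the replicate block (adjusted p = 0.0505), with control arrays only (0.0658), with centred pairs (0.0501) and with no pair of replicate 1 (0.205), and PRPF3 without replicate 4 (0.0525), all by limma. At 1.5-fold, calls of RPL14, LRBA, MAPK3, PRPF3, EIF3L, H2BC1, POLR2B and POMP were lost. Signal over background limits dim clusters: with those left out, 3285 and 2699 were called.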

Other observations

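Several families not described above held members at both ends. Among 44 mitochondrial carriers (SLC25 family), 14 were called higher in light (31.8%, against 16.5% of all clusters above the level of unexpressed genes). They were led by SLC25A51 (-1.53), the carrier of NAD, SLC25A52 (-1.32), its close paralogue, SLC25A39 (-1.20) and SLC25A26 (-1.18). On the other side 10 were higher in heavy (22.7%, near the 20.1% of those clusters). Among them were the ADP/ATP carriers SLC25A5 (0.87) and SLC25A4 (0.84), both picked after their values were seen. The median of the carriers was -0.013. Selenoproteins, whose mRNAs recode a stop codon as selenocysteine, had 6 of 21 called higher in light (28.6%) and 2 higher in heavy (9.52%), with SELENOW (-1.95), GPX1 (-1.88), GPX4 (-1.62) and SELENOF (-1.24) at the light end. Their median was 0.004, -0.145 without replicate 1, and 1 was higher in heavy without replicate 3 or 4.

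Amino acid transporters had 7 of 26 called higher in heavy (26.9%), including SLC7A5 (0.69) and SLC7A1 (0.66), and SLC36A4 (-1.04) was the 1 called higher in light (3.85%). Their median was -0.013. Without replicate 3 and without replicate 4, 4 were higher in heavy. Axon guidance ligands and receptors had 15 of 72 called higher in heavy (20.8%, against 20.1% of all clusters above the level of unexpressed genes) and 2 higher in light (1 without replicate 1 or 3), with UNC5B (0.91), a netrin receptor, and L1CAM (0.72) among the former. Ion channels (6 higher in heavy and 5 higher in light of 135), keratin-associated proteins (0 and 1 of 85) and olfactory receptors (4 and 5 of 349) had few calls, whose numbers moved with single replicates left out (ion channels 3 higher in heavy and 3 higher in light without replicate 4), and their median levels were 5.59, 5.12 and 3.34.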
